A study of Mus musculus with 66 samples.

Results

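The spinal cord of mice homozygous for the h1 allele of *Rorb* was compared with that of C57BL/6J mice, 3 libraries against 3, or 6 of the 66 libraries of the series. Every gene was examined rather than a chosen set. Of 45706 gene identifiers in the files, 17309 had enough counts to be tested. h1 arose spontaneously on C57BL/6J and is a duplication on chromosome 19 upstream of *Rorb* that takes in the first exon of the *Rorb1* transcript. The mutants were homozygotes of 1 inbred line, and the controls, labelled WT-B6, were wild type at *Rorb*. Both groups held 2 females and 1 male, all 8.0 weeks old, and replicate 3 was the male in each. Whole cords were flushed from the column with cold saline and their polyadenylated RNA was sequenced. Brains of the same 6 animals served as a second tissue, and 4 *Rorb h2/h2* cords (3 females and 1 male of 7.9 to 9.4 weeks) as a second mutant. h2 arose on albino B6(Cg)-Tyr c-2J/J mice, and its animals carry another series of animal numbers. Allele, background and any batch therefore cannot be told apart in that contrast. In age, h2 replicates 1 and 2 (7.9 weeks) were close to the h1 animals and replicates 3 and 4 (9.4 weeks) were older. Cords of other lines are used only for side values: *Rorb h3/h3* (4 of 8.0 to 9.6 weeks, 1 female), *Rorb h4/h4* (4 of 8.4 to 8.6 weeks, 2 females), wild-type DBA/1J (3 of 8.4 to 8.9 weeks, 1 female) and *Rorb h5/h5* on DBA/1J (3 of 8.4 to 8.7 weeks, 2 females). The labels give each animal a number but no litter, so p-values measure only the spread between these animals.

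*Rorb* encodes RORβ, an orphan nuclear receptor that binds DNA as a monomer and acts as a transcription factor. In the cord it marks inhibitory interneurons of the dorsal horn, which dampen sensory signals from limb afferents before they reach motor circuits. Mice that lack it lift their hindlimbs too high in walking, the gait by which this allele was found. *Rorb* is also expressed in layer IV of the cortex and in the retina.

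The 6 cord libraries held between 33971944 and 47653578 counts, and 0 of 6 pairs of replicates were identical. Values below are normalised CPM (counts in each library rescaled to a common total, adjusted by the trimmed mean of M-values method) unless stated. Markers of the labelled tissue were present in every library: astrocyte markers summed to 7415 to 7736 CPM, oligodendrocyte markers to 24820 to 26480 CPM and motor neuron markers to 408 to 460 CPM. All 25 posterior *Hox* genes, which pattern the trunk, passed the filter on low counts. Of 11 skeletal muscle markers 11 stayed under 1 CPM in all 6 libraries, and the list summed to at most 1.98 CPM. One identifier without a symbol, ENSMUSG00000098178, took 1.76%, 4.53% and 1.81% of all counts in the 3 C57BL/6J cords and 9.24%, 6.78% and 7.65% in the 3 h1 cords.

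*Rorb* lies on the reverse strand of chromosome 19 (chr19:18930609-19111196, GRCm38) and has 2 annotated starts in RefSeq. The duplication holds the first exon of one *Rorb* transcript and, the authors report, does not appear to hold that of the other. The gene-level counts add the transcripts of both starts, and for this reason the 120 bases before each are shown. Which start belongs to which transcript was not assigned here. They are written 5′ to 3′ on the strand of the gene, from RefSeq on GRCm38.p6.

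Outer start, chr19:19111197-19111316: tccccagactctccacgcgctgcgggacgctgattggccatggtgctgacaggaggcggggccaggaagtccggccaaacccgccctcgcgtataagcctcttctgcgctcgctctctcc
Inner start, chr19:19001118-19001237: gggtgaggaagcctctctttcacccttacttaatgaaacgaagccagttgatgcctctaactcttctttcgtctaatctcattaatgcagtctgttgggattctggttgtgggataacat

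*Rorb* itself was the first gene looked at. The C57BL/6J cords measured 39.8, 38.4 and 35.6 CPM and the *Rorb h1/h1* cords 31.6, 30.5 and 31.7 CPM. Every mutant cord lay below every control cord, so the groups did not overlap. The mutant level was 17.6% lower, a log2 fold change of -0.28 ± 0.053 (SE, n = 3 per group), with an adjusted p of 0.0339 by the edgeR quasi-likelihood test. On the length-normalised scale *Rorb* stood at 7.92 to 8.43 TPM in controls and at 6.26 to 6.31 TPM in mutants. An exact permutation test over the 6 libraries gave p = 0.1, the smallest that 3 against 3 allow. The call did not hold in 5 of the 6 fits that left out 1 library: the adjusted p was 0.3013, 0.0761, 0.2307, 0.2044 and 0.0953 without C57BL/6J replicate 1, C57BL/6J replicate 2 and h1 replicates 1, 2 and 3 in turn, and 0.0054 without C57BL/6J replicate 3. The log2 fold change stayed between -0.32 and -0.24 in all 6.

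**Figure D1:**
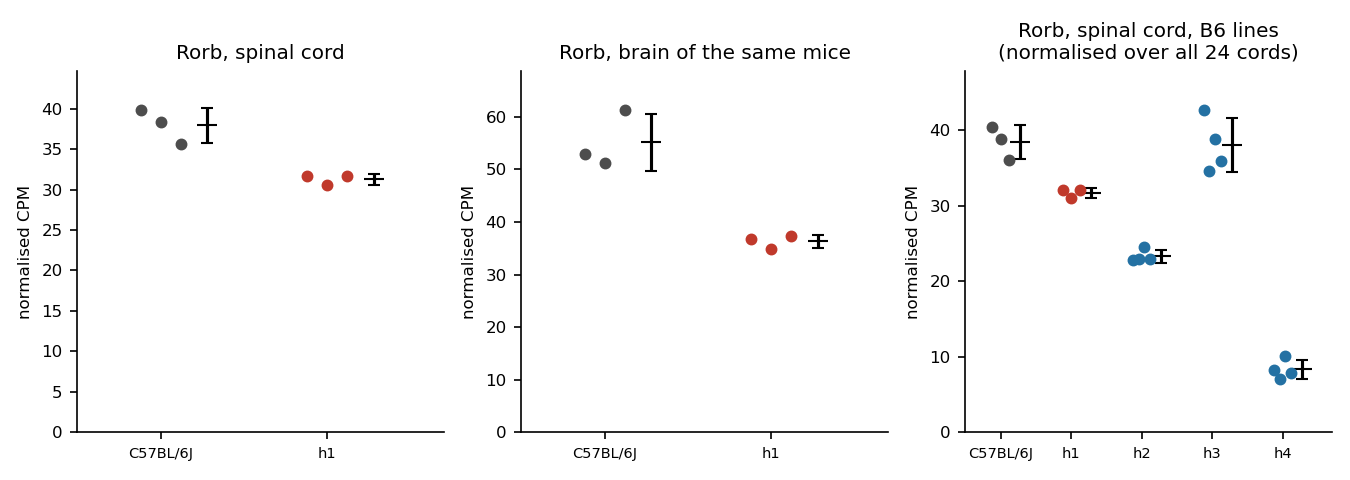
*Rorb* level per library (normalised CPM, axes from 0) in spinal cord, in brain of the same mice, and in the cords of the lines on B6 backgrounds, with black bars for the mean and SD beside the points. All 3 h1 cords sit between 30.5 and 31.7 CPM, below the 3 controls, and the 3 h1 brains also sit below the 3 control brains.

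In brain of the same animals the controls stood at 52.9, 51.3 and 61.3 CPM and the *Rorb h1/h1* mice at 36.7, 34.9 and 37.4 CPM. The brain log2 fold change was -0.60 ± 0.074 (adjusted p = 0.0838, edgeR). A model of both tissues with the animal as a block gave a cord effect smaller than the brain effect by 0.33 ± 0.10 on the log2 scale, with an unadjusted p of 0.005 and an adjusted p of 1, so the difference between tissues did not pass. Against the same C57BL/6J cords, which the contrasts share, the *Rorb* log2 fold change was -0.28 in h1, -0.72 in h2 (adjusted p = 9.56e-07), -0.02 in h3 (adjusted p = 0.9499) and -2.21 in h4 (adjusted p = 7.66e-09). Those contrasts called 2.09%, 1.01% and 1.75% of their genes in h2, h3 and h4. h3 arose on the same albino stock as h2, and h4 on B6.129S7-Il1r1 tm1/mx/J.

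None of the tested neighbours of *Rorb* passed. Of the 10 genes on its upstream side 6 were tested and of the 10 on its downstream side 8 were tested, with 0 called on either. Within 0.5 Mb upstream the annotation used here holds 1 gene, the small RNA *Gm25437*, which had no counts in these cords. The nearest tested gene downstream, the channel gene *Trpm6*, stood at 0.92 to 1.36 CPM in controls and 0.68 to 1.07 CPM in mutants, with overlapping groups. *Carnmt1*, a histidine methyltransferase gene, had the smallest p among the neighbours. Its controls were at 10.3, 11.01 and 10.2 CPM and its mutants at 6.80, 9.22 and 8.80 CPM, a log2 fold change of -0.33 ± 0.10 with an adjusted p of 0.1963.

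*Rorb* was 1 of 15 markers of dorsal horn inhibitory neurons, all of them tested, and the only one called (1 lower, 0 higher, beside 0.162% and 0.127% of all genes). Of the 15, 13 lay below 0, with a median log2 fold change of -0.09 against a median of -0.003 over all genes. *Lhx1*, a transcription factor of these cells, stood at 7.34, 6.52 and 7.38 CPM in controls and 5.91, 6.17 and 5.42 CPM in mutants (adjusted p = 0.2815). *Gad1* and *Gad2*, the GABA-synthesising enzymes, had log2 fold changes of -0.09 ± 0.035 and -0.08 ± 0.033 (adjusted p = 0.3123 and 0.3754). *Slc6a5*, the glycine transporter of inhibitory terminals, and *Pvalb* were near 0 at -0.03 ± 0.035 and -0.001 ± 0.044. The summed level of the list, *Rorb* included, was 1217 to 1229 CPM in controls and 1163 to 1194 CPM in mutants, without overlap. Of 10 pan-neuronal markers 9 lay below 0, their median was -0.06, and they summed to 5704 to 5948 CPM in controls and 5540 to 5695 CPM in mutants. edgeR called 0 of the 10, with 4 at an unadjusted p under 0.05 (11.3% of all genes), and DESeq2 called 1 lower (1.59% of all genes). Without C57BL/6J replicate 1 their median was -0.04. Their part in the *Rorb* result was not tested. In bulk tissue, fewer cells of a type and less RNA per cell cannot be told apart. Motor neuron markers (12 tested, median 0.06) and dorsal horn excitatory markers (15 tested, median -0.03) had 0 called by edgeR or DESeq2, with 0 and 2 at an unadjusted p under 0.05. The motor neuron median was 0.01 without C57BL/6J replicate 2 and 0.09 without C57BL/6J replicate 3.

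Across all genes, 50 of 17309 (0.289%) were called in *Rorb h1/h1* cord at an adjusted p of 0.05, 22 higher (0.127%) and 28 lower (0.162%). In all 50 the 3 mutant libraries lay outside the range of the 3 controls, which 16.0% of tested genes did (7.5% above and 8.46% below). The number rested on single libraries. Without C57BL/6J replicate 1 or without h1 replicate 1 edgeR called 0 genes, with 1407 and 1446 at an unadjusted p under 0.05. Without C57BL/6J replicates 2 and 3 it called 108 and 187, and without h1 replicates 2 and 3 it called 24 and 29. At an unadjusted p under 0.05 stood 11.3% of genes, 4.92% higher and 6.36% lower. DESeq2 called 139 of the 6490 genes to which it gave an adjusted p (2.14%), 0.555% higher and 1.59% lower. A single fit of all 7 groups of cords called 2 (0.0108%), *Tra2a* and *Ube2b*.

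**Figure D2:**
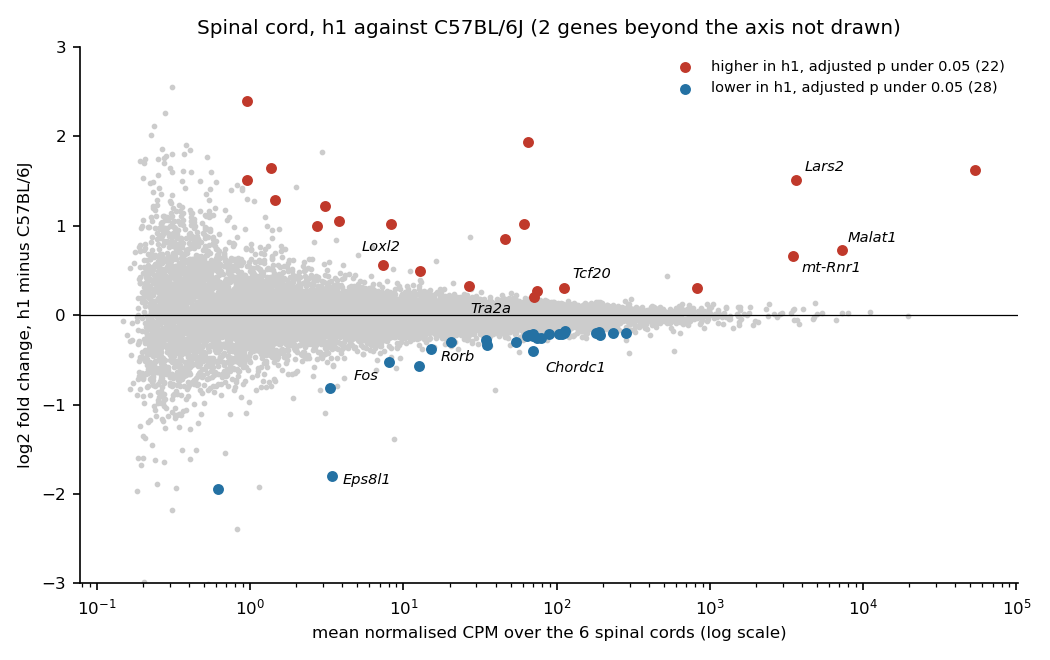
Each point is 1 of the 17309 genes tested in spinal cord, with its mean normalised CPM (log axis) and its log2 fold change, h1 minus C57BL/6J. Red points mark the 22 genes called higher and blue points the 28 called lower, and 2 genes beyond the axis, 1 of them called, are not drawn. Of the lower calls 22 lie within 0.5 of the axis, as do 6 of the higher calls.

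Of the 17309 genes tested 14776 were protein coding, and so were 25 of the 28 called lower. The median log2 fold change of the 28 was -0.24 and 22 were under 0.5 in size. Of the 22 called higher 6 were protein coding and 15 were predicted or had no symbol, and their median was 1.01. Of the higher calls 11 passed 2-fold, against 3 of the lower ones.

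Several of the lower calls are genes of RNA processing, grouped here after their values were seen and not by a list. *Tra2a*, an activator of alternative splicing, read 60.8, 59.9 and 59.5 CPM in controls and 48.1, 47.2 and 51.1 CPM in mutants. It fell by 18.8% (log2 fold change -0.30 ± 0.043, adjusted p = 0.007). The controls spanned a narrow band and the mutants lay well under it. *Tra2a* was called in 4 of the 6 fits that left out a library, and in the fit of all cord groups its adjusted p was 0.0063. Against the shared controls it was also called lower in h2, h3 and h4 cord (-0.18, -0.28 and -0.26). *Clk1*, a kinase that phosphorylates splicing factors, went from 120, 117 and 114 CPM to 96.1, 102 and 104 CPM (-0.21 ± 0.038, adjusted p = 0.023). *Srsf10*, a splicing factor of the SR family, read 70.8, 69.4 and 71.7 CPM in controls and 60.9, 59.5 and 61.9 CPM in mutants (-0.22 ± 0.039, adjusted p = 0.0242). Both kept a gap between the groups. The RNA-binding proteins *Hnrnpc* and *Hnrnph1* fell by 12.6% and 14.3% (adjusted p = 0.0333 and 0.0386), and *Xpo1*, the main receptor for nuclear export, fell by 13.8% (adjusted p = 0.0339).

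*Chordc1*, which encodes a co-chaperone of HSP90, had the smallest adjusted p among the lower calls. It measured 80.5, 73.6 and 84.6 CPM in controls and 59.4, 55.6 and 65.2 CPM in mutants, a log2 fold change of -0.41 ± 0.057 (adjusted p = 0.0061). *Ube2b*, a ubiquitin-conjugating enzyme, read 75.9, 76.9 and 73.3 CPM against 65.0, 63.4 and 63.6 CPM (-0.24 ± 0.038, adjusted p = 0.0141). Its groups were separated by more than either spread. *Dynll1*, a light chain of dynein, read 86.1, 82.3 and 90.2 CPM against 72.4, 69.7 and 74.3 CPM (-0.26 ± 0.042, adjusted p = 0.0141). *Ogfrl1* read 98.9, 96.6 and 94.1 CPM against 80.3, 84.7 and 84.3 CPM (-0.22 ± 0.037, adjusted p = 0.0178). *Kcnk1*, a potassium leak channel, read 76.6, 75.9 and 73.1 CPM against 64.1, 65.3 and 65.3 CPM (-0.21 ± 0.038, adjusted p = 0.025). In each of these the lowest control exceeded the highest mutant. Against the shared controls *Chordc1* (-0.332, -0.334 and -0.365) and *Kcnk1* (-0.29, -0.26 and -0.26) were also called lower in h2, h3 and h4 cord. *Ube2b* and *Dynll1* were called lower in h3 and h4 but not h2, and *Ogfrl1* in h2 and h4 but not h3.

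*Syt4*, a synaptotagmin of secretory vesicles, fell by 12.9% (adjusted p = 0.0307). *Etv1*, an ETS transcription factor, fell by 14.9% (adjusted p = 0.0265), and *Slc38a2*, an amino acid transporter, by 13.2% (adjusted p = 0.0381). Both were also called lower in h2, h3 and h4 cord against the shared controls. *Wasl*, an actin nucleation factor, fell by 11.6% (adjusted p = 0.0402), and *Itgb8*, an integrin subunit, by 12.6% (adjusted p = 0.0492). *Ptp4a1*, a phosphatase, was called at 12.2% lower in counts (adjusted p = 0.0492), but its TPM ranged from 130 to 168 in controls and from 102 to 220 in mutants with the higher mean in mutants. It was the 1 called gene whose TPM means went against the counts. *Gpr17*, a receptor of committed oligodendrocyte precursors, read 78.4, 77.4 and 88.6 CPM against 69.8, 66.8 and 68.7 CPM (-0.25 ± 0.048, adjusted p = 0.0339). It was the only one of 11 precursor markers called, beside 0.162% of all genes called lower, and the median of that list was 0.04.

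Some lower calls were scarce or predicted genes. *Eps8l1*, of a family of actin regulators, was at 7.28, 4.12 and 4.61 CPM in controls and 1.86, 2.25 and 0.544 CPM in mutants, a log2 fold change of -1.80 ± 0.31 (adjusted p = 0.0178). In brain of the same mice it was at 5.22, 3.05 and 5.03 CPM in controls and 1.80, 2.40 and 0.489 CPM in mutants (-1.50 ± 0.40, adjusted p = 0.9753), again without overlap. The lncRNA *A830036E02Rik* was at 1.36, 1.01 and 0.585 CPM against 0.216, 0.265 and 0.272 CPM (-1.95 ± 0.38, adjusted p = 0.0386). *Gm12940*, another lncRNA, was at 15.5, 14.9 and 14.8 CPM against 8.50, 10.1 and 11.7 CPM (-0.56 ± 0.093, adjusted p = 0.0153), and the predicted coding gene *Gm14288* fell by 22.9% (adjusted p = 0.0415). *Ighg3*, the constant region of an IgG heavy chain, had 23, 20 and 13 counts in the controls and 0 in all 3 mutants, which with a floor of 3 counts over the group makes it at least 16.4-fold lower (adjusted p = 0.0121). Leukocyte markers summed to 8.04 to 10.1 CPM in controls and 8.69 to 9.90 CPM in mutants.

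**Figure D3:**
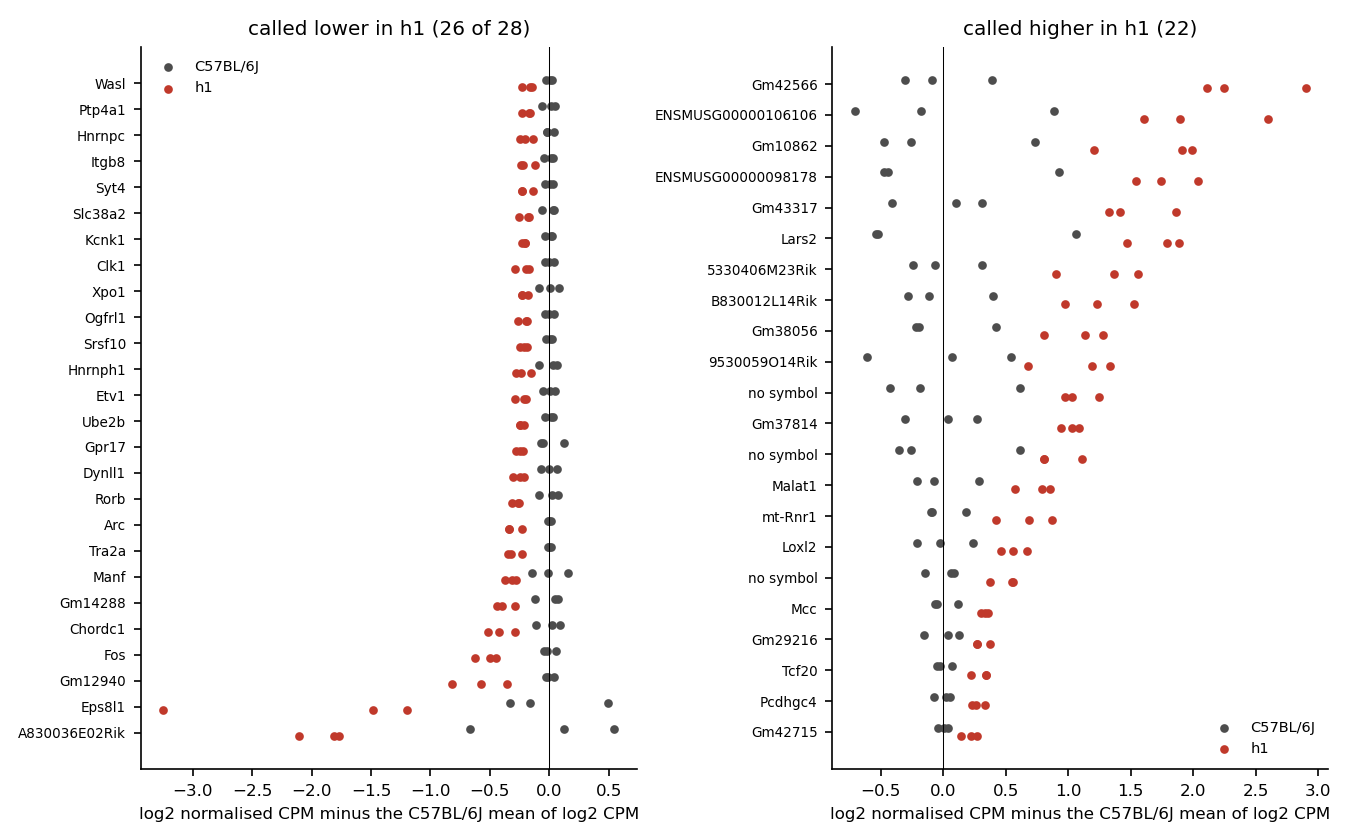
Log2 normalised CPM of each library relative to the control mean of log2 CPM (horizontal) for 26 of the 28 genes called lower (left; *Ighg3*, which is at 0 in h1, and 1 other are not drawn) and 22 called higher (right), grey C57BL/6J and red h1. The groups are apart in every gene shown. Among the higher calls 1 control often sits to the right of the other controls.

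Immediate early genes, which neurons switch on within minutes of activity, gave 2 lower calls and 0 higher calls among 24 tested, beside 0.162% of all genes called lower. *Fos* read 9.86, 9.35 and 9.18 CPM in controls and 6.12, 6.94 and 6.69 CPM in mutants, a log2 fold change of -0.52 ± 0.089 (adjusted p = 0.0182). *Arc*, which encodes a synaptic protein, read 22.4, 22.3 and 22.7 CPM against 17.8, 19.1 and 17.8 CPM (-0.30 ± 0.060, adjusted p = 0.0448). Both genes had controls within a narrow band and mutants below it. Of the 24 genes, 19 lay below 0 with a median of -0.15, and 6 did not overlap between groups, each of them lower in mutants, as were 8.46% of all genes. DESeq2 gave neither *Fos* nor *Arc* an adjusted p and called 0 of the list. The list's median was -0.10 without C57BL/6J replicate 1 and -0.31 in the fit with the level of ENSMUSG00000098178, described further on, as a covariate. *Egr1* (-0.31 ± 0.079, adjusted p = 0.1215), *Fosl2* (-0.37 ± 0.092, adjusted p = 0.1071) and *Nr4a1* (-0.44 ± 0.14, adjusted p = 0.2024) did not pass. In brain of the same mice *Fos* was at 25.4, 21.8 and 15.1 CPM in controls and 4.01, 14.7 and 7.99 CPM in mutants, and *Arc* at 117, 94.6 and 68.1 CPM against 24.8, 64.3 and 42.7 CPM. The brain log2 fold changes were -1.18 ± 0.33 and -1.07 ± 0.27 (adjusted p = 0.9976 and 0.8983). The cord effect minus the brain effect was 0.76 ± 0.29 for *Fos* and 0.82 ± 0.24 for *Arc*, with adjusted p = 1 for each. Against the shared controls *Fos* was at 0.21, 0.27 and 0.17 in h2, h3 and h4 cord (adjusted p = 0.5076, 0.4592 and 0.7784), and *Arc* at -0.24, -0.24 and -0.07 (adjusted p = 0.0244, 0.2582 and 0.6925). *Arc* was thus called lower in h2 cord as well, against the same control libraries.

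Folding factors of the endoplasmic reticulum (ER) gave 1 call among 30 tested, *Manf*, beside 0.162% of all genes called lower, and 24 of the 30 lay below 0 with a median of -0.09. These chaperones and disulphide isomerases fold secreted and membrane proteins, and many are switched on by the unfolded protein response. *Manf*, a secreted ER-stress-responsive factor, read 38.6, 35.01 and 43.4 CPM in controls and 32.0, 30.0 and 31.2 CPM in mutants (-0.33 ± 0.066, adjusted p = 0.0415). Against the shared controls it was also called lower in h2, h3 and h4 cord (-0.39, -0.525 and -0.508). *Hspa5*, the ER chaperone BiP, read 332, 278 and 409 CPM against 250, 242 and 268 CPM (-0.42 ± 0.089, adjusted p = 0.0608). *Calr*, calreticulin, read 307, 280 and 346 CPM against 249, 247 and 273 CPM (-0.28 ± 0.060, adjusted p = 0.0632). In all of these replicate 3 was the highest control and the groups did not overlap. Of the 30, 10 did not overlap, each lower in mutants, against 8.46% of all genes. Of the 30, 13 had an unadjusted p under 0.05, against 11.3% of all genes, and DESeq2 called 4 lower, against 1.59%. Without C57BL/6J replicate 3 the median of the list was -0.06. *Xbp1*, a transcription factor of this response, was at -0.33 ± 0.084 (adjusted p = 0.1215). The 16 genes of ER-associated degradation had 0 called and a median of -0.05, the 10 sensors 0 called and a median of -0.03, and the 24 genes of the ATF4 branch 0 called and a median of -0.02. At an unadjusted p under 0.05 these lists had 3, 1 and 2 genes, and DESeq2 called 0 in each. The degradation median was -0.02 without C57BL/6J replicate 3. The sensor median was 0.009 without C57BL/6J replicate 2, and that of the ATF4 branch 0.002 without h1 replicate 3.

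The ER stress response element (ERSE) is a promoter motif of this response, bound by NF-Y and ATF6. It is CCAAT and CCACG with a spacer of any bases, whose length the capitals below show. It was looked for on both strands in the 250 bases before each RefSeq start. Of 32851 such windows 0.113% hold it, and of the 30 folding factors 26 had a window and 8 held it. The shorter form ERSE-II (ATTGG, 1 base, CCACG) was in 0.0304% of windows and in 0 of these genes. All 8 with an ERSE lay below 0 in mutants, with a median log2 fold change of -0.245 and a range from -0.42 to -0.001, and the other 18 had a median of -0.03 and a range from -0.48 to 0.24, with 13 below 0. The lowest value of the list, that of *Sdf2l1* (-0.48 ± 0.13, adjusted p = 0.1477), was in a gene whose window does not hold these letters. *Manf*, the only folding factor called, was not among the 8 either. A match describes letters, not binding. *Ero1b* (-0.11) and *Hsp90b1* (-0.22), which hold it too, are not printed. The other 6 are shown from the strongest difference to the weakest to set each gene's motif, in capitals, with its flanks, beside its log2 fold change, 5′ to 3′ on the strand of the gene, from RefSeq on GRCm38.p6.

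*Hspa5*, -0.42, chr2:34772005-34772063, forward strand: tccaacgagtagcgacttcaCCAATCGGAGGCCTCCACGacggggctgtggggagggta
*Creld2*, -0.31, chr15:88819500-88819558, forward strand: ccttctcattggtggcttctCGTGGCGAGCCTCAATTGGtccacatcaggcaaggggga
*Calr*, -0.28, chr8:84847055-84847113, reverse strand: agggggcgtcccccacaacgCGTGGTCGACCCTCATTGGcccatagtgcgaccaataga
*Pdia6*, -0.27, chr12:17266471-17266529, forward strand: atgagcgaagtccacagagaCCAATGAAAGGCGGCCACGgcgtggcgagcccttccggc
*Dnajc3*, -0.20, chr14:118937807-118937865, forward strand: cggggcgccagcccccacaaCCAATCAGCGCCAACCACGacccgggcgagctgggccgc
*Canx*, -0.001, chr11:50325780-50325838, reverse strand: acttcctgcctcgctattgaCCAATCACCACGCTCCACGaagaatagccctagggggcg

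Heat-shock genes gave 1 call among 21, *Chordc1*, and 19 of the 21 lay below 0 with a median of -0.12. Of the 21, 13 had an unadjusted p under 0.05 and 4 lay below all controls, against 11.3% and 8.46% of all genes, of which 0.162% were called lower. *Dnaja1*, a cytosolic co-chaperone, read 302, 276 and 302 CPM in controls and 260, 252 and 264 CPM in mutants (-0.18 ± 0.041, adjusted p = 0.0765). The inducible *Hspa1b* stood at 6.47, 5.76 and 25.4 CPM in controls and 4.70, 3.38 and 6.35 CPM in mutants (-1.38 ± 0.41, adjusted p = 0.1797). Its 1 high control was replicate 3, and its groups overlapped. The list's median moved to -0.06 when C57BL/6J replicate 3 was left out. DESeq2 called 2 of the 21 lower, and 1.59% of all genes. Glucocorticoid-induced genes had 0 called of 18 by edgeR, 7 at an unadjusted p under 0.05, and 3 called lower by DESeq2 (11.3% and 1.59% of all genes). Of the 18, 15 lay below 0 and the median was -0.16, or -0.10 without C57BL/6J replicate 3. *Klf9*, a transcription factor under hormone control, was at 80.2, 77.3 and 78.0 CPM against 68.2, 69.5 and 72.0 CPM (-0.17 ± 0.038, adjusted p = 0.0784). *Glul*, glutamine synthetase, was at -0.11 ± 0.030 (adjusted p = 0.135) and *Mt2*, a metallothionein, at -0.22 ± 0.058 (adjusted p = 0.1352). The lists of clock genes (19 tested, median 0.009) and thyroid hormone genes (9 tested, median -0.05) had 0 called by edgeR, with 7 and 4 at an unadjusted p under 0.05 and 0 and 1 called by DESeq2.

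**Figure D4:**
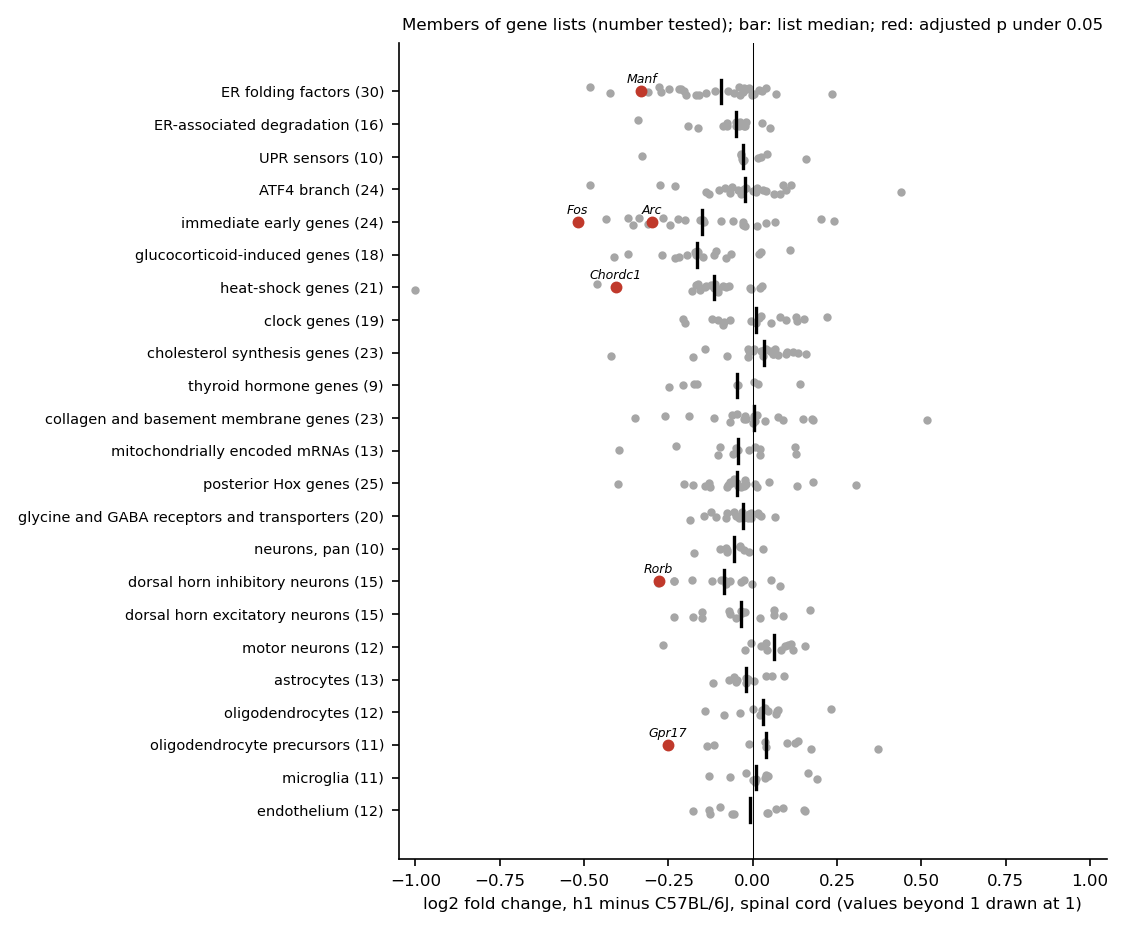
Log2 fold change, h1 minus C57BL/6J, in spinal cord for each tested member of 23 gene lists (grey points, values beyond 1 drawn at 1), the list median (black bar) and the members called (red). The called members are *Manf*, *Fos*, *Arc*, *Chordc1*, *Rorb* and *Gpr17*, all lower in h1.

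The genes called higher were led by RNAs that code for no protein. *Malat1*, a long non-coding RNA kept in the nucleus, had the smallest adjusted p of all genes. It stood at 5134, 6573 and 4650 CPM in controls and 9306, 8013 and 9767 CPM in mutants, a log2 fold change of 0.73 ± 0.087 (adjusted p = 0.0034). *mt-Rnr1*, the small ribosomal RNA of mitochondria, stood at 2521, 3064 and 2536 CPM against 4345, 3604 and 4937 CPM (0.67 ± 0.083, adjusted p = 0.0034). The 13 mitochondrial messenger RNAs had 0 called by edgeR or DESeq2, 3 at an unadjusted p under 0.05 (11.3% of all genes), and a median of -0.05. ENSMUSG00000098178 rose from 16970, 44750 and 17340 CPM to 97040, 68580 and 78980 CPM (1.63 ± 0.25, adjusted p = 0.0116). DESeq2 did not call it (adjusted p = 0.07), and without C57BL/6J replicate 2 its log2 fold change was 2.25. ENSMUSG00000106106, also without a symbol, rose from 14.9, 45.0 and 21.5 CPM to 147, 73.9 and 90.5 CPM (1.94 ± 0.27, adjusted p = 0.0061). In both the second control lay apart from the other controls, toward the mutants. *Lars2*, the leucyl-tRNA synthetase of mitochondria, had the same shape, at 1124, 3399 and 1138 CPM in controls and 5657, 4513 and 6018 CPM in mutants (1.52 ± 0.28, adjusted p = 0.0309). DESeq2 did not call *Lars2* (adjusted p = 0.1654).

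A further 7 transcripts with provisional names passed 2-fold, most of them at low levels. *Gm42566* stood at 0.385, 0.276 and 0.238 CPM in controls and 2.20, 1.39 and 1.27 CPM in mutants (2.40 ± 0.33, adjusted p = 0.0061). It was also higher in brain of the same mice without overlap, at 0.273, 0.314 and 0.165 CPM against 0.820, 0.637 and 0.722 CPM (brain adjusted p = 0.8742). *B830012L14Rik* was at 1.48, 2.37 and 1.67 CPM against 5.19, 3.54 and 4.22 CPM (1.23 ± 0.19, adjusted p = 0.0116), and *Gm38056* at 2.07, 3.22 and 2.10 CPM against 5.29, 4.22 and 5.83 CPM (1.06 ± 0.17, adjusted p = 0.0153). Here too the mutants were higher in every library. *Gm10862* was at 0.446, 1.04 and 0.52 CPM against 2.47, 1.44 and 2.34 CPM (1.64 ± 0.30, adjusted p = 0.0307). *Gm43317* was at 0.365, 0.599 and 0.52 CPM against 1.76, 1.22 and 1.29 CPM (1.52 ± 0.29, adjusted p = 0.0372). In both, the control closest to the mutants was replicate 2. *5330406M23Rik* was at 0.71, 1.04 and 0.801 CPM against 2.16, 1.57 and 2.47 CPM (1.28 ± 0.24, adjusted p = 0.0309). *9530059O14Rik* was at 5.48, 7.62 and 3.42 CPM against 11.9, 8.38 and 13.2 CPM (1.02 ± 0.20, adjusted p = 0.0392). The second h1 cord was the lowest mutant in each. *Gm37814*, at 1.85, 2.17 and 1.45 CPM against 3.803, 3.45 and 3.67 CPM, was just under 2-fold (1.00 ± 0.17, adjusted p = 0.0155). The other 3 identifiers without a symbol that were called higher had log2 fold changes of 0.49, 0.85 and 1.02.

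Besides *Lars2*, 5 protein-coding genes were called higher, with log2 fold changes from 0.21 to 0.56. *Tcf20*, a chromatin-associated regulator, read 96.9, 105 and 98.5 CPM in controls and 127, 117 and 127 CPM in mutants (0.30 ± 0.042, adjusted p = 0.0061). *Pcdhgc4*, a clustered protocadherin of neuronal surfaces, read 68.5, 70.0 and 64.1 CPM against 84.9, 80.8 and 79.0 CPM (0.27 ± 0.043, adjusted p = 0.0124). Reads of its shared 3′ exons can be split among the cluster's genes, so this value is uncertain. *Loxl2*, an enzyme that crosslinks collagen, read 5.80, 6.98 and 5.11 CPM against 8.72, 9.39 and 8.14 CPM (0.56 ± 0.11, adjusted p = 0.0448). *Mcc*, named for its mutation in colorectal cancer, read 22.9, 25.7 and 22.6 CPM against 29.9, 29.2 and 30.3 CPM (0.33 ± 0.060, adjusted p = 0.0265). These groups were apart too. The predicted gene *Gm42715* rose by 15.5% (adjusted p = 0.0448). The pseudogene *Gm29216* read 665, 759 and 806 CPM against 958, 896 and 892 CPM (0.30 ± 0.054, adjusted p = 0.0256). It can share reads with its parent.

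The share of ENSMUSG00000098178 ranged widely within several lines, from 2.08% to 9.93% in h3 and from 1.56% to 9.35% in DBA/1J, and less in h5 (2.9% to 4.06%). Over the 18 cords of h2, h3, h4, DBA/1J and h5, which took no part in the comparison, it held 1.56% to 9.93% of counts, so the 3 h1 cords lay within the range of the other lines, and C57BL/6J replicates 1 and 3 near its lower end. In brain of the same mice it held 8.51%, 3.04% and 4.34% in controls and 8.81%, 4.08% and 4.07% in mutants, with overlap (exact permutation test, p = 0.7). In those 18 cords, centred within their groups, the log2 level of *Malat1* went with that of ENSMUSG00000098178 at Pearson r = 0.963 and Spearman rho = 0.973 (within-group permutation p = 1e-05 each, the smallest that 100000 permutations can give, and 0.000122 after adjustment over 49 genes). Without the 2 cords farthest from the median r was 0.952. Of the 21 other genes called higher, 18 had r above 0.5 (85.7%), against 7.45% of all tested genes, and 16 passed the adjustment. *Lars2* had r = 0.991, *9530059O14Rik* 0.985, *Tcf20* 0.97 and *mt-Rnr1* 0.943, while *Loxl2* (-0.294), *Pcdhgc4* (0.356) and *Gm42566* (0.425) did not pass. These levels share a library and its normalisation.

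Of the 28 genes called lower, 3 had r above 0.5 (10.7%, against 7.45% of all tested genes) and 2 had r below -0.5 (7.14%, against 7.15%), with a median of -0.002. Among these, 1 with a positive and 1 with a negative r passed the adjustment, the former *Gm12940* (r = 0.785, adjusted permutation p = 0.0249). *Rorb* had r = 0.134, *Chordc1* 0.107, *Fos* 0.34 and *Manf* 0.436, none of which passed. A fit of all 7 cord groups with the level of ENSMUSG00000098178 as a covariate, added after the data were seen, gave *Malat1* a log2 fold change of 0.05 (adjusted p = 0.9417), *Tcf20* 0.03 (adjusted p = 0.9261) and *Lars2* -0.15 (adjusted p = 0.8055). It gave *Tra2a* -0.35 (adjusted p = 0.0036), *Gm12940* -0.79 (adjusted p = 0.0185), *Chordc1* -0.40 (adjusted p = 0.1993), *Rorb* -0.32 (adjusted p = 0.4123) and *Loxl2* 0.61 (adjusted p = 0.3784). *Tra2a* and *Gm12940* were the 2 genes called in that fit.

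**Figure D5:**
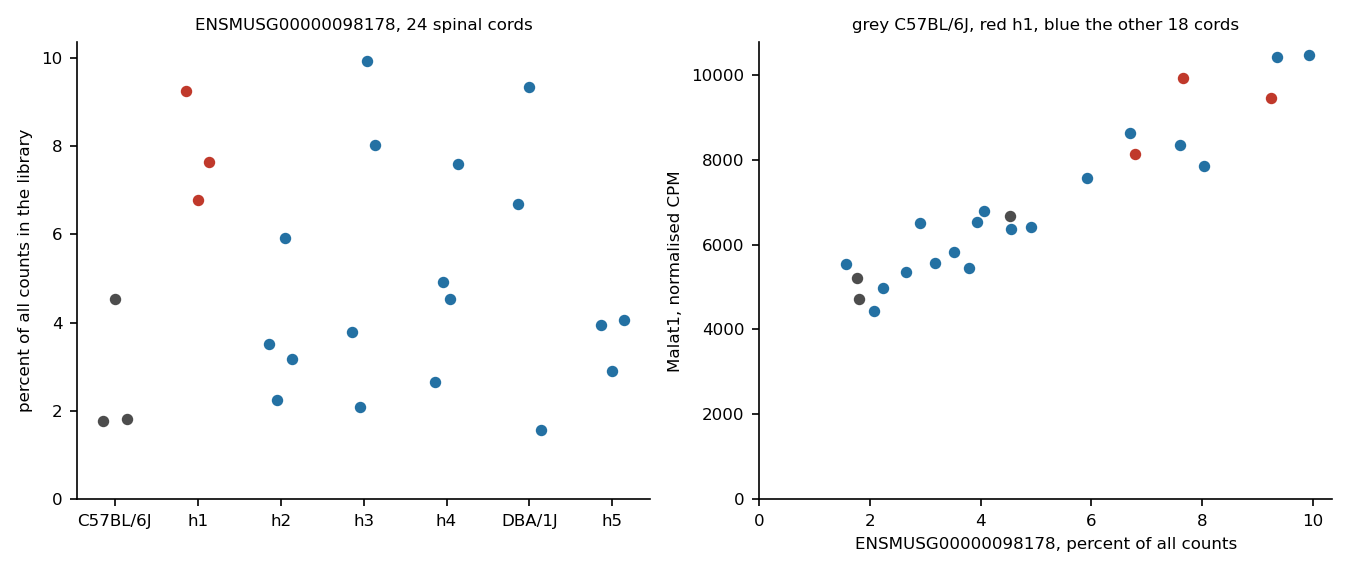
Left, the share of all counts that fell to ENSMUSG00000098178 in each of the 24 spinal cords by group. Right, the normalised CPM of *Malat1* against that share, grey C57BL/6J, red h1 and blue the other 18 cords. The 3 h1 cords reach 6.78% to 9.24% and the other lines span 1.56% to 9.93%.

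By annotation class, the 696 tested transcripts to be experimentally verified, a class of unspliced predicted RNAs, had a median log2 fold change of 0.15, and 14.9% of them lay above all controls in mutants against 7.5% of all genes. Their summed share of counts was 0.103% ± 0.0031 in controls and 0.104% ± 0.0038 in mutants (SD, n = 3). The 1150 lncRNAs had a median of 0.02 and the 14776 protein-coding genes one of -0.006. Protein-coding genes took 93.6%, 90.9% and 93.8% of counts in controls and 86.0%, 88.5% and 87.5% in mutants. The part of this share in the results was not tested beyond the covariate fit.

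No gene had a genotype effect that differed between cord and brain after adjustment. edgeR called 0 of 18395 genes in the test of cord effect minus brain effect, with 662 at an unadjusted p under 0.05 (3.6%), and DESeq2 called 0 of 27166. With 1 animal left out, ENSMUSG00000098178 and ENSMUSG00000106106 were called without C57BL/6J replicate 2, and 3 genes, among them *A830036E02Rik* and the predicted *Gm28439*, without C57BL/6J replicate 3. Brain alone gave 0 calls of 17603 (0.0%) by edgeR, with 745 at an unadjusted p under 0.05 (4.23%). The 22 genes called higher in cord had a median log2 fold change of 1.01 there and 0.07 in brain, and the 28 called lower had -0.24 in cord and, over the 27 that were tested in brain, -0.11 there. The genes were chosen on their cord values, so these medians are a description. In brain *Manf* was at -0.46 ± 0.092 and *Chordc1* at -0.27 ± 0.11, neither of which passed.

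The direct comparison set *Rorb h1/h1* cord against *Rorb h2/h2* cord, 2 lines that differ in more than the allele. It called 161 of 17483 genes (0.921%), 110 higher in h1 (0.629%) and 51 lower (0.292%), and DESeq2 called 232 (1.33%). ENSMUSG00000098178 was among the higher ones (1.17 ± 0.20, edgeR adjusted p = 0.009), at 6.78% to 9.24% of counts in h1 and 2.24% to 5.92% in h2. Of the 22 genes called higher against C57BL/6J, 12 were called here too, *Malat1*, *mt-Rnr1* and *Lars2* among them. The part of this shift in the 161 was not tested. *Rorb* was higher in h1, at 32.1, 31.0 and 32.2 CPM against 22.8, 23.0, 24.6 and 22.9 CPM in h2 (normalised over all 24 cords), a log2 difference of 0.45 ± 0.048 (adjusted p = 9.58e-05). The smallest adjusted p was that of *Ndn*, an imprinted gene for a growth suppressor of neurons, at 123, 126 and 122 CPM in h1 and 169, 164, 166 and 172 CPM in h2 (-0.44 ± 0.029, adjusted p = 2.83e-07). *C3*, the central complement component, was lower in h1 by 0.36 ± 0.032 on the log2 scale (adjusted p = 1.41e-05). *Aldh1a1*, a retinoic acid-forming enzyme that is also the third tested gene upstream of *Rorb*, was at 162, 150 and 152 CPM in h1 and 117, 126, 124 and 123 CPM in h2 (0.33 ± 0.034, adjusted p = 6.39e-05). *Calca*, which encodes CGRP, was at 23.1, 22.1 and 22.1 CPM against 14.97, 15.7, 16.5 and 15.7 CPM (0.51 ± 0.056, adjusted p = 1.11e-04). In each of these the groups did not overlap. *Dio2*, which activates thyroid hormone, was higher in h1 by 0.55 ± 0.065 and *Apln*, the ligand apelin, by 0.32 ± 0.036 (adjusted p = 2.75e-04 and 1.45e-04). *Adamtsl4* and *Itih3*, of the extracellular matrix, were lower by 0.49 ± 0.048 and 0.34 ± 0.036 (adjusted p = 5.09e-05 and 8.64e-05), and the protease *Capn11* was higher by 2.03 ± 0.24 (adjusted p = 2.75e-04). Of the 10 genes of smallest adjusted p only *Rorb* was called in *Rorb h1/h1* against C57BL/6J. There *Ndn* was at 0.02, *C3* at 0.14, *Aldh1a1* at -0.03 and *Calca* at 0.04. Against the same controls *Ndn* (0.46, 0.54 and 0.42), *Apln* (-0.44, -0.50 and -0.81) and *Dio2* (-0.75, -0.53 and -1.10) were called in h2, h3 and h4 cord. *Rorb* and *Adamtsl4* were called in h2 and h4, and *Aldh1a1* in h2 and h3. *C3*, *Itih3* and *Calca* were called in h2 only, and *Capn11* in none of these lines. Without h1 replicate 1 the comparison called 36 genes and without h1 replicate 3 it called 65. Without h2 replicates 1 and 2 it called 99 and 95, and a fit of all cord groups called 18.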

How the data were processed

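Polyadenylated RNA of spinal cord was sequenced in paired reads by the authors, who trimmed the reads with Trim Galore, aligned them with STAR to GRCm38 and estimated levels with RSEM. The deposited expected counts are RSEM estimates per gene, which the authors did not normalize, and the deposited TPM values were scaled by RSEM for length and depth. Strand setting and annotation version are not given in the sources used here. Expected counts were rounded (5.06% of values in the 6 cords were not whole) and symbols were joined to 41407 of 45706 identifiers by Ensembl ID, positions to 31375 by symbol.

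R 4.3.3 and edgeR 4.0.16 were used (TMM, filterByExpr, quasi-likelihood test, Benjamini-Hochberg adjusted p of 0.05), and DESeq2 1.42.0, the tool of the study, as an alternative. SE is the log2 fold change over the root of the F statistic. The scripts were tested on simulated data. The tissue difference used the animal as a block. Other alternatives were DESeq2 size factors, leaving out the low-count filter, a term for sex, a block for replicate number, removal of identifiers without a symbol, one fit of all cords, and each library left out in turn. Named genes were *Rorb*, its 10 neighbours a side, all called genes (per library for the 12 smallest adjusted p each way and those past 2-fold), list members and the 10 leading genes of the h2 contrast. The genes, lists and comparison were chosen with earlier results of these data known. Positions and sequences are from RefSeq on GRCm38.p6. Library depths of 33971944 to 47653578 counts limit the precision of genes near 1 CPM. Counting intervals and floors cover counting error only. One gene called lower is counted but not reported here by name.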

Additional observations from a re-analysis of the deposited data

Results flagged for a closer look

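Groups of 3 are too small for a check of single libraries. Among the 10 genes described in the comparison with *Rorb h2/h2*, the 4 h2 cords were checked for a library far from the rest. One was found: the highest h2 cord for *Rorb* stood at 24.6 CPM, and its gap to the next cord was 0.903 of the group's range. How often chance gives a gap of this size was not worked out, and the 10 checks share the same 4 libraries. The library is h2 replicate 3, and without it that comparison called 138 genes. No gene passed the test of a difference between cord and brain.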

How the results depend on the processing

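The count of 50 called genes moved to 139 with DESeq2, 477 without a low-count filter, 98 with sex as a covariate, and 2 in a fit of all cord groups or in that fit with the level of ENSMUSG00000098178 as a covariate. It ranged from 0 to 187 with each library left out, and stayed near with DESeq2 size factors (48) and without symbol-less identifiers (43). With the replicate number as a block 89 genes were called and *Rorb* was at -0.28. No label ties same-numbered cords together beyond their shared sex, since replicate 3 is the male in each group, and their deviations correlated at 0.024, 0.034 and 0.046, although each library correlated best with its own number. *Rorb* was at -0.28 in the fit of all cords (adjusted p = 0.318) and -0.32 with the covariate (0.4123), and between -0.32 and -0.24 with each library left out. With the covariate 5 higher calls turned sign: *mt-Rnr1* -0.17, *Lars2* -0.15, *9530059O14Rik* -0.15 and a pair of unnamed identifiers -0.29 and -0.38, and the cause was not tested beyond the covariate. The tissue difference gave 0 to 3 calls with each animal left out (3 without C57BL/6J replicate 3, 2 without C57BL/6J replicate 2). The h2 contrast gave 18 in the fit of all cords, 144 with the block and 36 to 175 with a library left out. DESeq2 gave an adjusted p to 32 of the 50 genes and called 28. Those it did not call were all higher calls: *Lars2*, ENSMUSG00000098178 and the same pair of unnamed identifiers (DESeq2 adjusted p = 0.0891 and 0.1988). Leaving out C57BL/6J replicate 1 or h1 replicate 1 ended every call.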

Other observations

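Lists that gave no call in *Rorb h1/h1* cord by edgeR are given here with their values. Over all genes DESeq2 called 1.59% lower and 0.555% higher. Of 23 cholesterol synthesis genes 7 lay below 0, with a median log2 fold change of 0.03, and DESeq2 called 1 higher. The lowest adjusted p was that of *Lss*, lanosterol synthase, at 0.16 ± 0.038 (adjusted p = 0.0985), and *Idi1* was at -0.14 ± 0.043 (adjusted p = 0.2003). Of 23 collagen and basement membrane genes 10 lay below 0 (median 0.004), and DESeq2 called 1 lower and 1 higher. *P4ha1*, the prolyl hydroxylase of collagen, was at -0.35 ± 0.074 (adjusted p = 0.0616) and *Serpinh1*, the collagen chaperone, at -0.26 ± 0.068 (adjusted p = 0.135), while *Lamc1*, a laminin chain, was at 0.18 ± 0.043 (adjusted p = 0.1038). Of 20 receptors and transporters for glycine and GABA 16 lay below 0 (median -0.03), led by *Gabra2* at -0.19 ± 0.052 (adjusted p = 0.1565). Of 25 posterior *Hox* genes 19 lay below 0 (median -0.05).

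Markers of other cell types had 0 called by edgeR in the lists that follow. DESeq2 called 1 oligodendrocyte marker lower and 1 mural marker higher, beside 1.59% and 0.555% of all genes. Medians were -0.02 for astrocytes (13 tested), 0.03 for oligodendrocytes (12), 0.009 for microglia (11), -0.007 for endothelium (12) and 0.08 for mural cells (10), where *Notch3* was at 0.29 ± 0.066 (adjusted p = 0.0784). Markers of large-axon neurons had a median of 0.01 (8 tested), meninges -0.05 (9), ependyma -0.15 (8) and Schwann cells -0.05 (6). With a control library left out, the mural median ranged from 0.03 to 0.16 and that of meninges from -0.15 to 0.03. Red blood cell genes summed to 310 to 391 CPM in controls and 289 to 339 CPM in mutants. Sensory ganglion, bone, fat, choroid plexus and brain-only lists had 4, 4, 1, 4 and 4 members tested, with 0 called.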
